A study of Homo sapiens with 8 samples.

Results

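Ribosome biogenesis and nucleolar factors are the proteins that transcribe, cut, modify and fold ribosomal RNA and assemble it with ribosomal proteins. The set described here held 65 of the 19964 genes with a coding transcript in the files. Of these, 45 were taken by a symbol pattern (UTP, NOP, RRP, NOL, NOC or GNL followed by a number, or POLR1A to POLR1E) and 20 were named singly, such as NCL, NPM1, FBL and DKC1. The rule uses symbols and no measured change, although it was drawn up with earlier results of these data known. Each gene was read on the transcript with the most coding sequence (CDS) reads in the control ribo-seq libraries.

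The libraries came from HEK293T cells, a human embryonic kidney cell line that carries the SV40 large T antigen, grown in DMEM. Cells received 40 µM sodium arsenite or vehicle for 30 min and were then chilled and washed with cycloheximide, which holds ribosomes on mRNA. Each treatment was sampled in 2 replicates, and every sample gave a ribo-seq library (fragments protected by 80S ribosomes) and an mRNA-seq library (hydrolysed poly(A) RNA fragments of the same size), 8 libraries in all. The study's methods describe the replicates as independent biological ones, and they also differed in adapter. Replicate 2 was sequenced on 2 kinds of instrument, and the methods do not state the instrument of replicate 1. The ribo-seq libraries held 1023774 to 7268542 reads on the chosen transcripts and the mRNA-seq libraries 3988153 to 21690319, and replicate 1 was the shallower in every group. VIM, a filament gene typical of this line, was at 277 to 403 counts per 1000000 reads (CPM) in mRNA-seq, whereas the blood marker PTPRC and the liver marker ALB reached at most 0.776 and 0.258 CPM. PECAM1, an endothelial marker, reached 1.03 CPM. Not all markers split this way, since the connective tissue gene COL1A1 was at 9.54 to 12.9 CPM, level with the epithelial keratin gene KRT8 (6.34 to 14.5 CPM) and above the progenitor gene NES (2.32 to 5.18 CPM). The keratin gene KRT18 was at 22.0 to 36.1 CPM.

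Ribosome assembly begins in the nucleolus, where RNA polymerase I makes a long precursor rRNA. Small nucleolar ribonucleoproteins (snoRNPs) modify this precursor, with box C/D particles methylating ribose and box H/ACA particles converting uridine to pseudouridine. The small subunit processome folds and cleaves the part that becomes the 40S subunit, and a separate series of factors builds the 60S subunit. Arsenite triggers phosphorylation of the initiation factor eIF2, which lowers protein synthesis as a whole. The study asked which mRNAs depart from that general fall. All changes below are relative to the bulk of genes in the same kind of library, because libraries were scaled by trimmed mean of M values (TMM), so the general fall in translation is not part of them.

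RNA level, ribosome occupancy and translation efficiency (TE) were compared between arsenite and control. The RNA level is mRNA-seq reads over the whole transcript, ribosome occupancy is ribo-seq reads over the CDS, and TE is occupancy relative to RNA. Each was tested by edgeR's quasi-likelihood test with the replicate number as a block, and a gene was called at a Benjamini-Hochberg adjusted p below 0.05 over all genes tested. With 2 libraries against 2, an exact test of a single gene cannot reach that threshold. In bulk libraries, fewer cells with a transcript and less of it per cell cannot be told apart.

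Together the 65 genes took 1.24% and 1.12% of mRNA-seq reads in control replicates 1 and 2, and 1.34% and 1.17% after arsenite. Of ribo-seq CDS reads they took 1.95% and 1.52% in control, and 2.55% and 1.50% after arsenite. The rise in replicate 1 was in part NCL, nucleolin, an abundant RNA-binding protein of the nucleolus, which alone gave 36.9% of the members' ribo-seq reads in control replicate 1 and 38.4% after arsenite. NPM1, nucleophosmin, a histone and ribosomal protein chaperone, gave 9.38% and 12.5%. Without these 2 genes, the ribo-seq share was 1.05% and 1.03% in control and 1.25% and 1.14% after arsenite, higher after arsenite in both replicates.

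At the RNA level, 10 of the 65 members rose and 0 fell with arsenite at an adjusted p below 0.05. Over all 12573 genes tested, 5.75% were called, 3.76% higher and 1.99% lower. The members' median log2 change was 0.05 against -0.01 for all genes, and 43 of 65 members had a positive change. In both replicates taken singly, 33 members (50.8%) were higher, against 30.0% of all genes. The rise was small: 61 of 65 members changed by less than 0.25 on the log2 scale, and CCDC86 and PDCD11 stood furthest out. The 2 members that were lower at an unadjusted p below 0.05 were NHP2 and NOP10, both parts of the H/ACA particle. The plot of all 65 members shows these values by role.

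**Figure D1:**
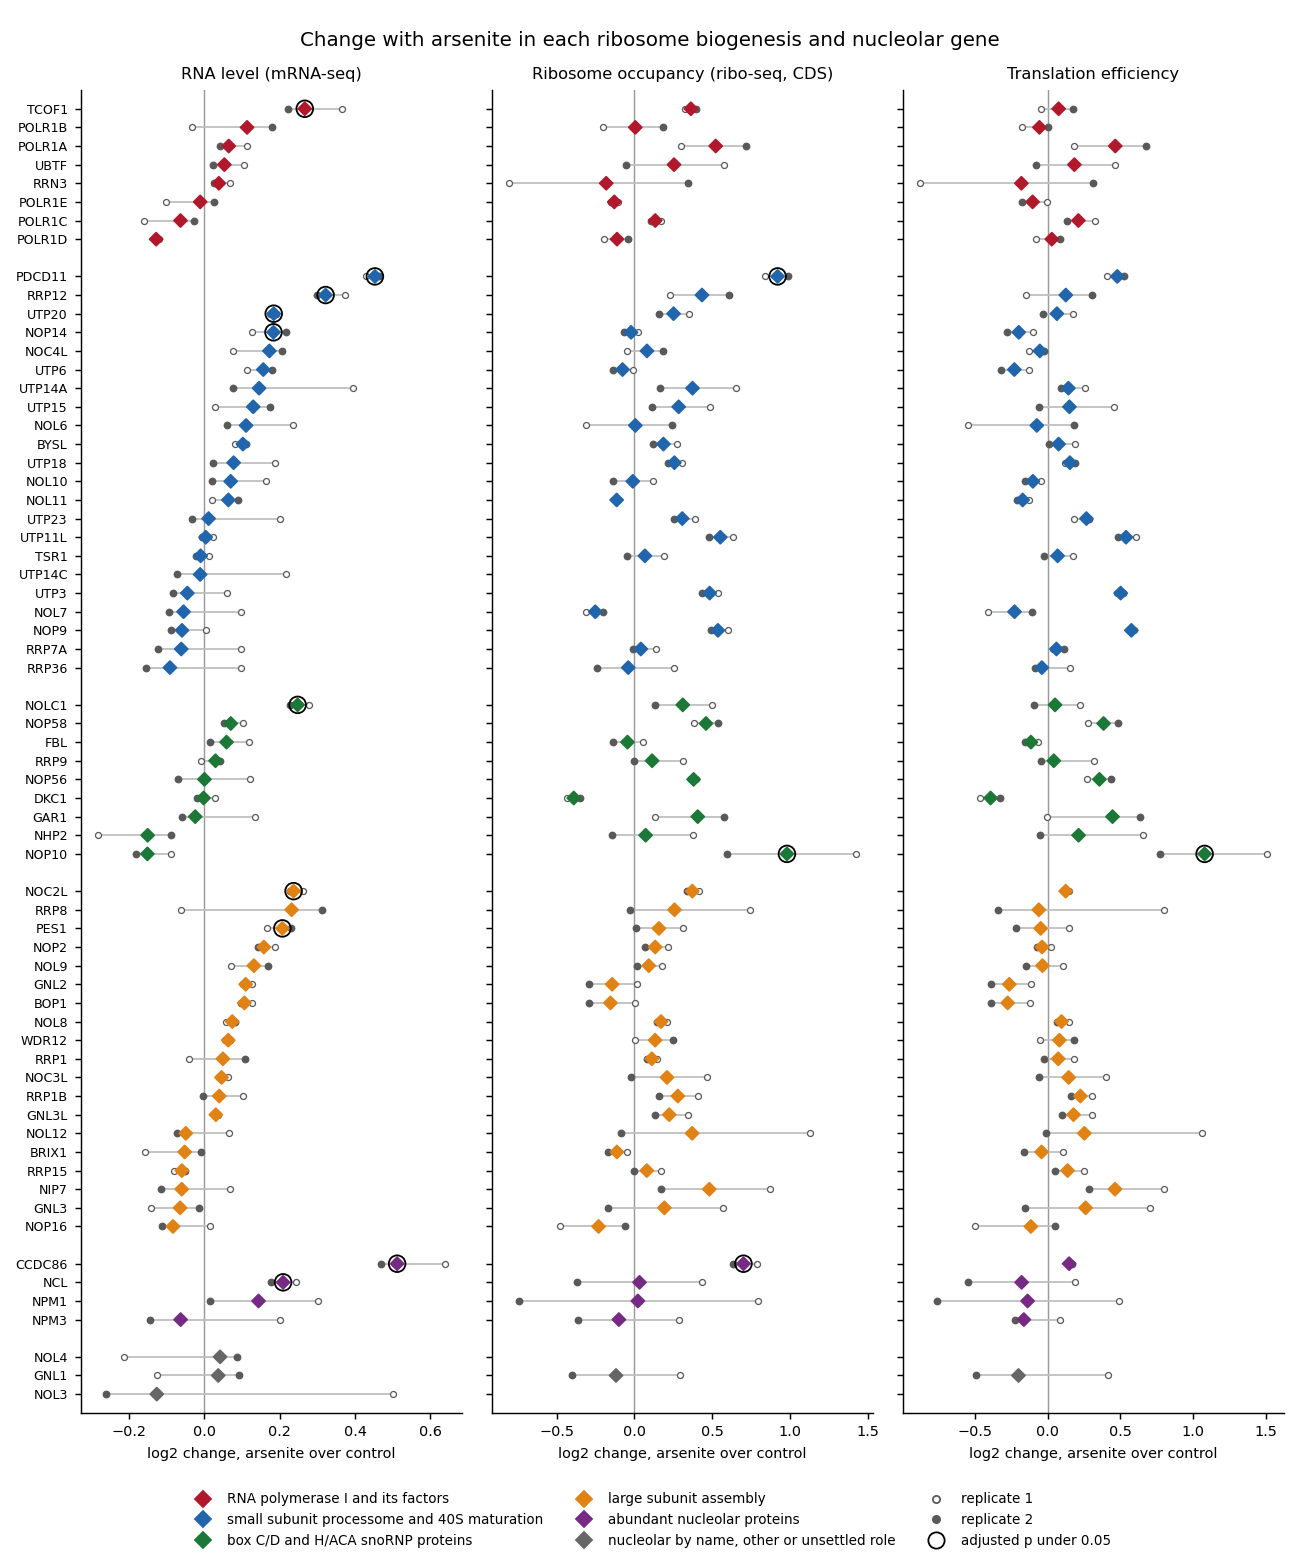
Log2 change with arsenite (x axis) for each member (y axis, grouped by role) in RNA level, ribosome occupancy and translation efficiency. Diamonds are the fitted change, open and filled circles the change within replicates 1 and 2, and black rings mark an adjusted p below 0.05. The 10 rings in the RNA panel, 3 in the occupancy panel and 1 in the translation efficiency panel all lie right of 0.

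CCDC86, a nucleolar coiled-coil protein, had 73.8 and 83.1 CPM in mRNA-seq in the 2 control replicates, and 115 CPM in each arsenite replicate. Both arsenite libraries were thus above both controls. The log2 change was 0.51 (SE 0.06, edgeR adjusted p = 5.95e-14), or 1.43-fold. PDCD11, the human counterpart of yeast Rrp5 and a factor in cleavage of the rRNA precursor, went from 121 to 163 CPM in replicate 1 and from 90.9 to 125 CPM in replicate 2. Its groups did not overlap but came close, since replicate 1 ran higher throughout. The change within replicates was alike, 0.43 and 0.46 on the log2 scale. The fitted log2 change was 0.45 (SE 0.06, edgeR adjusted p = 3.23e-12).

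A further 3 of the called genes serve the processome or 40S maturation. RRP12, which helps carry pre-ribosomal particles out of the nucleus, had 73.5 and 46.0 CPM in control and 95.2 and 56.6 CPM after arsenite, a log2 change of 0.32 (edgeR adjusted p = 0.000282). UTP20 and NOP14, both processome components, each changed by 0.18 on the log2 scale, with edgeR adjusted p = 0.0239 and 0.0173. For all 3 genes the groups overlapped, because the replicates differed more than the treatments. The remaining 18 processome and 40S members did not pass. Among them BYSL, needed for 40S maturation, had a log2 change of 0.10 and TSR1, a GTPase-like 40S factor, had -0.01.

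TCOF1 was the one called gene among the 8 of RNA polymerase I and its factors. It encodes treacle, which aids transcription of the rRNA genes and is mutated in Treacher Collins syndrome. It had 165 and 193 CPM in control and 212 and 226 CPM after arsenite, with no overlap of the groups, and a log2 change of 0.27 (edgeR adjusted p = 5.96e-05). The polymerase itself was not called: the largest subunit POLR1A changed by 0.06, POLR1B by 0.11 and the subunit POLR1D, shared with RNA polymerase III, by -0.13 on the log2 scale. UBTF, which binds the rRNA gene promoter, and RRN3, which joins the polymerase to it, had log2 changes of 0.05 and 0.04.

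NOLC1, a snoRNP chaperone also called Nopp140, had 371 and 506 CPM in control and 451 and 593 CPM after arsenite. Its log2 change was 0.25 (edgeR adjusted p = 0.00011), the one call among 9 snoRNP members. The enzymes and scaffolds of the particles sat near 0: FBL, the box C/D methyltransferase, at 0.06, its partners NOP56 at 0.00 and NOP58 at 0.07, and DKC1, the pseudouridine synthase dyskerin, at 0.00. NHP2 and NOP10, small proteins of the H/ACA core, both had a log2 change of -0.15, with edgeR adjusted p = 0.0677 and 0.106. NHP2 passed, as lower, under upper-quartile scaling.

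Of the 19 large subunit members, 2 were called. NOC2L, a 60S factor that also binds histones, changed by 0.24 (edgeR adjusted p = 0.0125). PES1, which forms a complex with BOP1 and WDR12 that acts on the 60S precursor, changed by 0.21 (edgeR adjusted p = 0.00385). Its partners BOP1 and WDR12 had log2 changes of 0.11 and 0.06 and did not pass. BRIX1, another 60S factor, was at -0.05, and GNL3, the nucleolar GTPase nucleostemin, was at -0.06. NCL had 2471 and 1739 CPM in control and 2924 and 1966 CPM after arsenite, a log2 change of 0.21 (edgeR adjusted p = 0.000824). NPM1 missed the threshold, with a log2 change of 0.14 and edgeR adjusted p = 0.0572, but was called, as higher, with RLE scaling, with a minimum mean of 50 reads and on the transcript with most mRNA-seq reads. Its relative NPM3 was at -0.06.

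The 10 calls rest on comparing libraries within a replicate. Without the block 0 members were called by edgeR, and 0 of all 12573 genes tested. In that fit 1 member had an unadjusted p below 0.05, against 28 of all genes. DESeq2, with the block, called 4 of the 10, namely CCDC86, NCL, NOLC1 and PDCD11, and gave no adjusted p for 19 members.

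For 104 other genes of the same pathway, listed by role, 6 rose and 3 fell at the RNA level, with a median log2 change of 0.02. The largest rise among the called genes was PELP1 (0.29), which scaffolds a 60S maturation complex, and the largest called fall was NHP2L1 (-0.21), the box C/D core protein. The genes for the ribosomal proteins themselves ran the other way: of 84 tested, 0 rose and 24 fell at an edgeR adjusted p below 0.05, and 0 were higher at an unadjusted p below 0.05. Their median log2 change was -0.11 and the largest called fall was RPS21 (-0.30). The difference between the lists was not tested.

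Promoter sequences were looked up for the members, since several of them moved together at the RNA level. RefSeq promoter windows (GRCh38.p14, 250 bases before to 50 after the annotated start) were at hand for 56 of the 65 genes. The letters CACGTG, a canonical E-box that reads the same on both strands, stood in 19 of these 56 genes (33.9%), against 8.77% of all 27305 genes with a window and 12.8% of the 9521 that were also tested for RNA change. Of the 19 members with the letters, 4 were called at the RNA level and the median log2 change was 0.08. Of the 37 members without them, 3 were called (PDCD11, NCL and NOC2L) and the median was 0.00. The other 3 called members, NOLC1, RRP12 and TCOF1, had no window. Over all tested genes with a window, 5.83% of those with the letters and 3.73% of those without were called higher, and both medians were near 0. These are descriptions: a match is not evidence that a factor binds. The windows below run from 60 bases before the start to 25 bases from it, with CACGTG in capitals, for the 4 called members that hold it, for NOP10 and for PDCD11, which rose without it.
CCDC86 (chr11:60842053-60842137, plus strand): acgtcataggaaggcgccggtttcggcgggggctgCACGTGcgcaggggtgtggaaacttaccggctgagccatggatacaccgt
UTP20 (chr12:101280045-101280129, plus strand): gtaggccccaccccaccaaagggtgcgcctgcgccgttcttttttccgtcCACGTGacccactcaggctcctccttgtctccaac
PES1 (chr22:30591886-30591970, minus strand): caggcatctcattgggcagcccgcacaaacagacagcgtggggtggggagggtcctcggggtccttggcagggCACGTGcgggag
NOP14 (chr4:2963382-2963466, minus strand): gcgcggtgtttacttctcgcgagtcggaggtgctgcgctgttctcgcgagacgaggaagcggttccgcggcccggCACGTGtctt
NOP10 (chr15:34343112-34343196, minus strand): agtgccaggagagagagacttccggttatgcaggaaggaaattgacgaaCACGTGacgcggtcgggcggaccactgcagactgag
PDCD11 (chr10:103396566-103396650, plus strand): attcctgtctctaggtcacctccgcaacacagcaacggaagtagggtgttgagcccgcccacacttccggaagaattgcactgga
The first base of the match lies 25 bases before the start in CCDC86, 10 before it in UTP20 and 11 before it in NOP10. NOP10 holds another match 170 bases before the start, outside the stretch printed. In PES1 and NOP14 it lies just inside the transcript. The first 5 bases of a transcript were also read for a C followed by 4 pyrimidines, the start of a terminal oligopyrimidine tract, the element known from ribosomal protein mRNAs. It was found in 4 members (NPM1, GNL1, FBL and UTP14A), that is in 4 of 56, against 7.56% of the tested genes with a window.

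Ribosome occupancy was called for 3 of 62 members, all higher after arsenite: PDCD11, NOP10 and CCDC86. Over the 10291 genes tested, 2.68% were called, 1.38% higher and 1.3% lower, against 4.84% of the members. This gap depended on the scaling: with RLE scaling the members called stayed at 3 but 5.49% of all genes were called, and with upper-quartile scaling 4.64%. The members' median log2 change was 0.13 against 0.00 for all genes, and 45 of 62 were positive. The replicates differed widely here. The median change was 0.29 in replicate 1 and 0.076 in replicate 2, and 24 of 62 members (38.7%) changed in opposite directions in the 2 replicates, against 37.2% of all genes. NOL3, NOL4 and UTP14C had too few ribo-seq reads to be tested. NOL3 encodes an inhibitor of apoptosis and entered the set by its symbol. UTP14C is a close copy of UTP14A, and reads common to both genes were lost from each. In control UTP14C had a mean of 30.2 CPM in mRNA-seq and 2.64 in ribo-seq, against 35.1 and 63.0 for UTP14A. What lowered its ribo-seq count was not tested.

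PDCD11 had 123 and 151 CPM over its CDS in control and 219 and 299 CPM after arsenite, a mean of 137 ± 20.2 against 259 ± 56.2 (SD, n = 2). Both arsenite libraries exceeded both controls. The log2 change was 0.92 (SE 0.18, edgeR adjusted p = 0.00769), 1.89-fold, against a 1.37-fold rise in RNA. Its TE change, which measures that gap, was not called (edgeR adjusted p = 0.111). CCDC86 had 90.7 and 125 CPM in control and 157 and 194 CPM after arsenite, again without overlap. Its log2 change was 0.70 (SE 0.19, edgeR adjusted p = 0.0464), 1.62-fold. NOP10 had 93.6 and 77.7 CPM in control and 251 and 117 CPM after arsenite, with no overlap but a gap mostly due to replicate 1. Its log2 change was 0.98 (SE 0.21, edgeR adjusted p = 0.0154), and 1.42 and 0.59 within replicates 1 and 2.

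**Figure D2:**
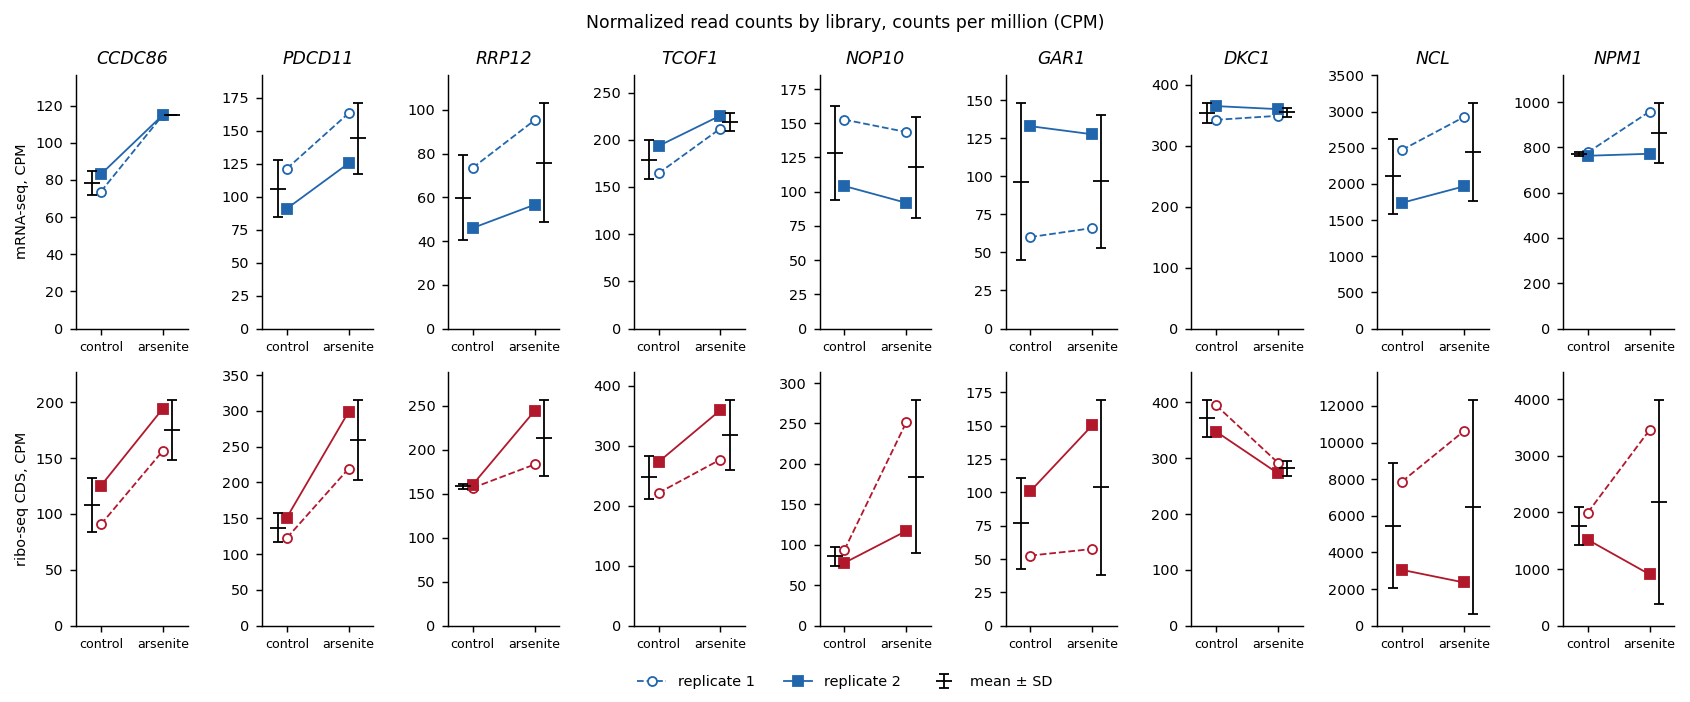
Normalized read counts (CPM, y axis) in control and arsenite for 9 members, mRNA-seq above and ribo-seq over the CDS below, with each replicate joined by a line and the mean ± SD (n = 2) beside it. PDCD11 and CCDC86 rise in both kinds of library, NOP10 rises in ribo-seq while its mRNA-seq lines fall slightly, DKC1 falls in ribo-seq, and the ribo-seq lines of NCL and NPM1 rise in replicate 1 and fall in replicate 2.

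NCL and NPM1 show how far the ribo-seq replicates diverged. NCL had 7868 CPM in control replicate 1 and 10617 after arsenite, but 3047 and 2360.3 in replicate 2. NPM1 went from 1999 to 3459.6 CPM in replicate 1 and from 1517 to 905 CPM in replicate 2. Their fitted log2 changes were 0.03 and 0.02, with no direction shared by the replicates. What separates the replicates of these genes was not tested.

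The members that rose at the RNA level were mostly positive in occupancy too: 9 of the 10 had a positive change, the exception being NOP14 at -0.02, and their median was 0.34. For the 52 other members the median was 0.11, and 36 were positive. In TE the medians of both groups were 0.07. RRP12 had an occupancy change of 0.43, TCOF1 of 0.36, NOC2L of 0.37 and NOLC1 of 0.31, none of them past the threshold. In the plot of RNA against occupancy, PDCD11 and CCDC86 lie apart at the upper right and NOP10 at the upper left. Both axes come from the same treatments and the 2 kinds of library were made from the same lysates.

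**Figure D3:**
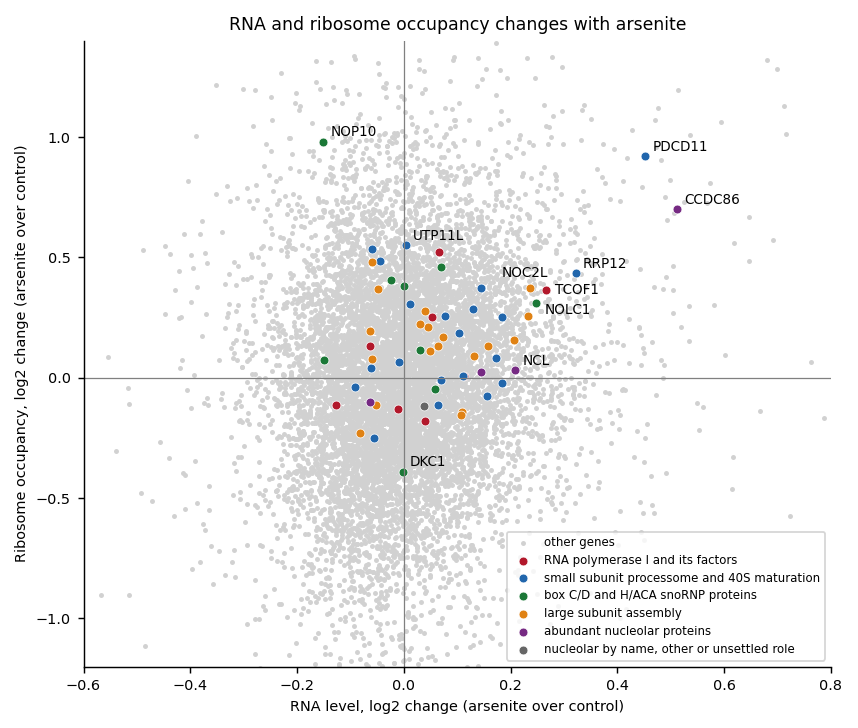
RNA change (x axis) against ribosome occupancy change (y axis), both log2 of arsenite over control, for 62 members coloured by role over the other genes in grey (125 of these fall outside the axes). PDCD11 and CCDC86 are at the upper right, and NOP10 is high with an RNA change of -0.15.

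Without the block, edgeR called 0 members for occupancy, and 0 of all 10291 genes tested. In that fit 1 member had an unadjusted p below 0.05, against 149 of all genes. DESeq2 called PDCD11 alone. CCDC86 missed the threshold when each gene was read on the transcript with most mRNA-seq reads. With a stricter minimum of a mean of 50 reads, POLR1A and UTP11L were called as well, which made 8.06% of the members against 7.87% of all genes under that minimum. Among the 103 other pathway genes tested, 0 were called by edgeR and 19 had an unadjusted p below 0.05, 16 of them higher. Over all 10291 genes tested, 1811 had such a p, 889 of them higher. The median of the 103 genes was 0.05. The 81 ribosomal protein genes tested had 2 calls higher and 11 lower, and a median of -0.28.

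Translation efficiency was called for 1 of 62 members, NOP10, which was higher after arsenite. Over the 10273 genes tested, 2.15% were called, 1.04% higher and 1.11% lower, so the members' share (1.61%) was near that of all genes. The members' median log2 TE change was 0.07 against -0.01, and 37 of 62 were positive. In TE 32 members (51.6%) had the same sign in both replicates, against 62.0% of all genes. In size, 58 of 62 members changed by less than 0.5 on the log2 scale.

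NOP10 is the smallest core protein of the H/ACA particle, which also holds dyskerin, NHP2 and GAR1 and is part of telomerase. Its mRNA-seq level was 153 and 104 CPM in control and 144 and 91.9 CPM after arsenite, while its ribo-seq level rose. The log2 TE change was 1.08 (SE 0.23, edgeR adjusted p = 0.0454), 2.11-fold, with 1.51 in replicate 1 and 0.77 in replicate 2. This call is close to the threshold. DESeq2 also made it, but it was lost with upper-quartile scaling, with a minimum mean of 50 reads and with mRNA-seq reads taken over the CDS, where the adjusted p was 0.0645, 0.057 and 0.0727. The log2 change under these settings was 1.09 to 1.10. The call was also lost with 1 replicate block shared by both assays, the fit first designed, which called 0 of all genes. Over all alternative fits the adjusted p ranged from 0.0167, with no filter on low counts, to 1.00, with no block.

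None of the other H/ACA proteins was called. DKC1 had the lowest TE change of all members, -0.39 (SE 0.15), with -0.46 and -0.33 in the replicates, at edgeR adjusted p = 0.172. Its ribo-seq level was 395 and 348 CPM in control and 292 and 273 CPM after arsenite, so both arsenite libraries were below both controls while its mRNA-seq level held between 343 and 365 CPM. GAR1 changed by 0.45 in TE, which came from replicate 2 alone (0.00 and 0.64). NHP2 changed by 0.21, with opposite signs in the replicates (0.65 and -0.06). The differences between these 4 genes were not themselves tested.

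Next to NOP10, the highest TE changes with the same sign in both replicates were those of 4 processome factors. NOP9, an RNA-binding protein with Pumilio-like repeats, changed by 0.58 (0.59 and 0.58 in the replicates, edgeR adjusted p = 0.0758). It had 52.0 and 53.2 CPM in control ribo-seq and 78.8 and 74.8 CPM after arsenite, without overlap. UTP11L changed by 0.54, UTP3 by 0.50 and PDCD11 by 0.48, with edgeR adjusted p = 0.0807, 0.103 and 0.111. None of the 4 passed. At the other end, after DKC1, were BOP1 (-0.28) and the GTPase GNL2 (-0.26) of the 60S pathway, and UTP6 and NOL7 of the processome (both -0.23).

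The box C/D proteins also differed in sign, without a call. NOP56 and NOP58 changed by 0.36 and 0.38 in TE, with edgeR adjusted p = 0.221 and 0.182, and both replicates were positive for each. FBL, in the same particle, changed by -0.12. Among RNA polymerase I genes POLR1A changed by 0.46 (edgeR adjusted p = 0.167), POLR1B by -0.06, UBTF by 0.18 and RRN3 by -0.18. TCOF1 and CCDC86, higher in RNA, had TE changes of 0.08 and 0.15, and NOLC1 of 0.05. The remaining anchors lay between -0.18 (NCL) and 0.26 (GNL3). The replicates had opposite signs for POLR1B, UBTF, RRN3, TCOF1, NOLC1, NCL and GNL3. The same held for the anchors NPM1, NPM3, PES1, BRIX1, WDR12, UTP20 and TSR1. NPM1 changed by 0.49 in replicate 1 and -0.76 in replicate 2. In RRN3 the changes were -0.88 and 0.31 in replicates 1 and 2, and in GNL3 0.71 and -0.16.

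Without the block, edgeR called 0 members for TE, and 0 of all 10273 genes tested. In that fit 0 members had an unadjusted p below 0.05, against 147 of all genes. With the block, 10 of 62 members had one, 9 of them higher. Over all 10273 genes it was 2191, 1031 of them higher. Among the 103 other pathway genes tested for TE, 1 was called, SURF6, a 60S and 40S assembly factor, at 0.73. Their median was 0.06. Of 81 ribosomal protein genes, 2 were called higher and 3 lower, with a median of -0.14.

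In control cells most members had a higher translation efficiency than the median gene. The log2 of ribo-seq over mRNA-seq CDS share, a ratio in which CDS length cancels, had a median of 0.05 over the 62 members and -0.27 over all genes tested. In all, 49 of 62 members lay above the median of all genes. No test is given, because the control ribo-seq reads chose the transcript. The highest were NOL9 (1.22), a polynucleotide kinase of 60S rRNA processing, RRP12 (0.99) and NPM1 (0.99), at the 97.9, 95.8 and 95.7 percentiles of tested genes. The lowest was NOL8 (-1.62), at the 9.12 percentile, followed by POLR1D (-1.26) and NOP56 (-1.15).

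By role, the control median was 0.67 for the 4 genes grouped as abundant nucleolar proteins (NCL, NPM1, NPM3 and CCDC86), which ranged from -0.51 to 0.99. The group name does not hold for all of them. In control mRNA-seq CCDC86 and NPM3 had means of 78.4 and 106 CPM, below FBL at 483 CPM. The control median was 0.20 for the 21 processome and 40S members and 0.10 for the 19 of the large subunit. It was 0.10 for the 8 of RNA polymerase I and -0.23 for the 9 snoRNP members. The processome was above the large subunit and RNA polymerase I in both replicates (0.27 against 0.13 and 0.14 in replicate 1, and 0.17 against 0.11 and 0.04 in replicate 2), while the order of the other two differed between replicates. The 103 other pathway genes had a control median of 0.07, with 82 above the median of all genes. The 81 ribosomal protein genes had a control median of -0.86.

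**Figure D4:**
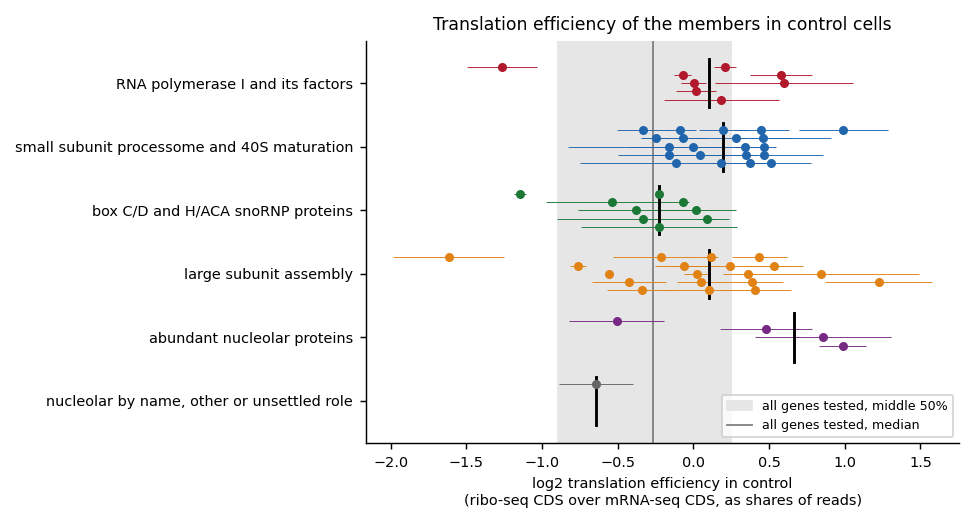
Log2 translation efficiency in control cells (x axis, ribo-seq over mRNA-seq CDS share of reads) for the 62 members by role. Points are the mean of the 2 replicates, horizontal lines span the replicates, black bars are medians of each role, and the grey band and line give the middle 50% and the median of all genes tested. Most members lie right of the line at -0.27, with NOL8, POLR1D and NOP56 to the left of the band.

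Ribosomes on 5′ leaders, where upstream reading frames lie, were scarce in these mRNAs. In control, leader reads were 0.133% of the members' ribo-seq reads in replicate 1 (49 of 36910, 95% Wilson interval 0.1% to 0.175%) and 0.299% in replicate 2 (0.268% to 0.333%). Over all genes the shares were 0.380% and 0.777%. After arsenite the members' share was 0.169% (0.126% to 0.227%) in replicate 1 and 0.721% (0.646% to 0.803%) in replicate 2, while that of all genes was 0.476% and 1.48%. The intervals cover counting error only. NCL and NPM1 weighed on these shares in replicate 1: without them the members' share there was 0.227% in control and 0.313% after arsenite, and in replicate 2 it was 0.298% and 0.655%. In replicate 1 the members' intervals overlapped, and in replicate 2 they did not. Of the 65 members, 28 had no leader read in control and 10 had 10 or more. The same counts are not given for all genes, and leader length was not taken into account.

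Over both control libraries, leader use relative to the CDS was high in GNL1, with 30 leader reads to 548 CDS reads (5.47 per 100), and in POLR1D, with 14 to 261 (5.36 per 100). WDR12 had 3.16 per 100 and GAR1 2.89 per 100. The replicates differed too far to rank these genes: in control replicates 1 and 2, GNL1 had 8.99 and 4.79 per 100, POLR1D 3.03 and 6.15, and WDR12 4.04 and 2.87. NOL4 had 5.56 per 100, from a single leader read. After arsenite WDR12 had 6.29 and 5.49 per 100 in replicates 1 and 2, GAR1 1.85 and 4.69, and POLR1D 6.45 and 6.25. GNL1 had 3.39 and 6.80 per 100, lower than control in replicate 1 and higher in replicate 2.

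The shift between leader and CDS could be tested for 6 members, and 0 were called by edgeR. Of these 6, 0 had an unadjusted p below 0.05, against 184 of all 625 genes tested. Of all 625 genes tested, 0.16% were called, that is 1 gene, SLC35A4, named here after its values were seen. SLC35A4 shifted towards the CDS, with a log2 change of -5.08. The members' median log2 shift towards the leader was 0.81, against 0.83 over all genes tested. NPM1 had the highest value, 1.39 (edgeR adjusted p = 0.23), then NHP2 with 1.16 (adjusted p = 0.173). WDR12 had 0.85, NCL 0.76, GAR1 0.75 and GNL1 -0.09. With a mean of at least 5 leader counts, 11 members were tested and 0 called. Of these 11, 2 had an unadjusted p below 0.05, with shifts towards the leader, against 355 of all 1335 genes. DESeq2 was not run for this comparison.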

How the data were processed

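Ribo-seq and mRNA-seq were measured in HEK293T cells, 2 replicates per treatment. The deposited files hold raw read counts per RefSeq transcript and region: per the study's methods the authors removed adapters with cutadapt, set aside spike-in and rRNA reads, aligned the rest with Bowtie 1.0.0, and dropped any read that hit transcripts of several genes. Genes with close copies are thus undercounted. Replicates had different adapters, and no spike-in scaling was applied here.

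Counts were tested with edgeR 4.0.16 in R 4.3.3 (TMM, quasi-likelihood, mean of at least 10 counts), and with DESeq2 1.42.0 as an alternative. CPM values were scaled by TMM. Members and lists were chosen with earlier results of these data known. The RNA and occupancy fits had a replicate block, since replicates differed in preparation: deviations of same-numbered control and arsenite libraries correlated at 0.795 in ribo-seq (7382 genes) and 0.874 in mRNA-seq (10867 genes). The designed TE and leader fits had 1 replicate block shared by both assays or regions. That block called 0 genes in both comparisons, and it recovered none of the changes known in data made to check the scripts. Those made data held a separate replicate difference for each assay or region, which a shared block cannot fit. The check therefore could not decide between the blocks. The reported fits have a block within each assay or region, and the shared block is an alternative. The block within regions was chosen after seeing the data. Replicate log2 changes had a prior count of 0.5.

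Named genes were members called in any comparison, up to 5 per direction with the largest TE change of the same sign in both replicates, 25 anchors of known role, and up to 5 with most leader reads per CDS read. Columns other than read counts were not used.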

Additional observations from a re-analysis of the deposited data

How the results depend on the processing

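Of the named members' values, those past the threshold kept their direction under each alternative fit that gave them an adjusted p, which DESeq2 did not for NOC2L and RRP12 in RNA. Without the replicate block, the members called fell to 0 in RNA level, occupancy and TE, as did the calls over all genes. DESeq2 called 4 members in RNA and 1 in occupancy, and mRNA-seq CDS reads left 6 in RNA and 0 in TE. TE also had 0 calls with upper-quartile scaling, with a mean of at least 50 counts and with 1 block shared by both assays, and that minimum gave 5 calls in occupancy. Over all genes, calls were 723, 276 and 221 in RNA, occupancy and TE, and 87, 54 and 104 by DESeq2. They went up to 565 with RLE, 477 with upper-quartile scaling, 541 with no filter and 581 with a mean of at least 50 counts in occupancy, and in TE to 491 with no filter and down to 53 with mRNA-seq CDS reads. Leaving out a replicate in turn, the members' median log2 change ranged from 0.03 to 0.10 in RNA, from 0.076 to 0.29 in occupancy and from -0.019 to 0.16 in TE, where it turned negative without replicate 1. The median control TE of members over that of all genes was 0.31, with 0.29 to 0.51 leaving out a replicate, and 0.73 with mRNA-seq reads over the transcript. Replicate 1 held the fewest reads, and leader reads were too few for most members to be tested.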
